A study of Mus musculus with 40 samples.

Results

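The nuclear genes of respiratory complexes II, III, IV and V were followed in livers of mice that lack the NAD+ enzyme Nampt in hepatocytes. A gene was included when its mouse symbol named a subunit of succinate dehydrogenase (Sdha to Sdhd), of the cytochrome bc1 complex (Uqcr genes and Cyc1), of cytochrome c oxidase (Cox4i to Cox8 genes) or of ATP synthase (Atp5 genes), when it was no pseudogene, and when it had at least 10 counts in at least 3 libraries. Of 55487 genes in the count table, 57 matched by symbol, 7 of these were pseudogenes and 6 had too few counts, which left 44 genes: 4 of complex II, 9 of complex III, 14 of complex IV and 17 of complex V. Just inside the count rule were Cox6a2 and Cox8b, each with 10 counts in 5 libraries, and just outside it were Cox6b2 with 2 such libraries and Cox4i2 with 1.

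HNKO mice carried Nampt fl/fl with Alb-Cre+/-, a Cre recombinase driven by the albumin promoter, and WT mice were their floxed littermates, so that the floxed alleles were shared and only Cre differed. All were female C57BL/6JBomTac mice that received purified diet (PD) from an age of 9 weeks, and livers were taken at day 3, 6, 12 or 21 of this feeding. The labels list these days as the age. Total RNA depleted of rRNA was sequenced from whole liver, with 5, 4, 5 and 5 WT libraries and 5, 5, 6 and 3 HNKO libraries at days 3, 6, 12 and 21. The comparison of HNKO with WT at each day asks how the livers differ as feeding with PD goes on.

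Electrons from nutrients reach the respiratory chain through complex I, which oxidizes NADH, and through complex II, which oxidizes succinate and is also an enzyme of the tricarboxylic acid cycle. Complex III passes them from ubiquinol to cytochrome c, complex IV passes them on to oxygen, and complex V uses the proton gradient that is built up on the way to make ATP. Complex II is encoded by nuclear genes alone, whereas complexes III, IV and V also hold subunits translated from mitochondrial DNA. Several subunits of complexes IV and V exist as isoforms of different genes, among them Cox6a2, Cox7a1 and Cox8b of heart and skeletal muscle. The transcription factors NRF1 and GABPA are known activators of nuclear respiratory genes.

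The 38 libraries held 16151037 to 64181492 counts (median 26466500), and 2 further HNKO libraries of day 21 that the labels describe as failed were left out. Levels are given as CPM, the counts per 1000000 counts on library sizes scaled by TMM. Nampt itself ranged from 57.4 to 155 CPM in WT and from 30.3 to 82 CPM in HNKO, with log2 fold changes of -0.93, -0.90, -0.82 and -0.69 at days 3, 6, 12 and 21 (edgeR adjusted p = 0.0193, 0.0128, 0.0208 and 0.161), and the genotypes overlapped at day 6. The sum of 10 hepatocyte markers was lower in HNKO, at 69562 to 120162 CPM against 134579 to 152307 CPM at day 6, and overlapped between genotypes at days 3, 12 and 21. All 10 markers were detected in every library. The sum of 7 cholangiocyte markers was higher, at 173 to 763 CPM against 41.9 to 55.8 CPM at day 6, and did not overlap between genotypes at any day. HNKO library 29 of day 6 had the lowest hepatocyte sum and the highest cholangiocyte sum. In 4 libraries (HNKO 11 and 13 of day 12, HNKO 37 and WT 21 of day 21) the sum of 5 skeletal muscle markers exceeded 50 CPM, with 369, 80, 275 and 62.9 CPM, while each of these markers was at 0 in at least some other libraries. The libraries also fell into 2 sets that the labels do not name, libraries 1 to 16 with 41, and libraries 19 to 40. Of 20253 tested genes outside the 44, 77 did not overlap between these sets, and neither did Atp5e (31.6 to 55.5 against 65.2 to 114 CPM) and Atp5mpl (25.8 to 37.5 against 41.3 to 71.5 CPM). Both genotypes were in both sets at days 3, 6 and 12, while at day 21 all 3 HNKO libraries and 4 of 5 WT libraries were in the second. What sets them apart was not tested. In whole liver, fewer hepatocytes and less RNA of a gene per hepatocyte cannot be told apart.

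Upstream sequence of the genes is shown first, because members of all 4 complexes were lower in HNKO together. RefSeq promoter sequences (GRCm38.p6, 250 bases before to 50 bases after the start) were matched for 34 of the 44 genes. The stretches below run 5′ to 3′ on the gene's strand and lie outside the gene as GENCODE places it, with matches to the palindromic NRF1 motif with 1 base left free or to the GABPA motif (CCGGAAG or CTTCCGG) in capitals.
Sdha: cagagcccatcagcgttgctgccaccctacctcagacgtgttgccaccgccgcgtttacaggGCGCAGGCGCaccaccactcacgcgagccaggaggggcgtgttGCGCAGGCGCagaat
Sdhd: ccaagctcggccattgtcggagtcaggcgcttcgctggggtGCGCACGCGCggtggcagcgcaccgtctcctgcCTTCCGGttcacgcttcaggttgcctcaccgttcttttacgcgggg
Uqcr11: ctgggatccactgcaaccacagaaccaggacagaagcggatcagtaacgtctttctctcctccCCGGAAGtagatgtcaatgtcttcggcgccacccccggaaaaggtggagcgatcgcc
Cox6a1: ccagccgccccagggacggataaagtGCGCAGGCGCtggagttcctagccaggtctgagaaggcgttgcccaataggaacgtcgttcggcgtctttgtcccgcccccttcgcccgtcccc
Atp5h: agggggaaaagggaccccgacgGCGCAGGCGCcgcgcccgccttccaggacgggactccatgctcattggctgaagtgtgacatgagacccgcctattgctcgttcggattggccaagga
These stretches lie at chr13:74350281-74350400 (Sdha), chr9:50603850-50603969 (Sdhd), chr10:80406831-80406950 (Uqcr11), chr5:115348982-115349101 (Cox6a1) and chr11:115419963-115420082 (Atp5h), all on the minus strand.

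They were chosen to show a match in each complex and do not represent every gene. Over the whole 300 bases and both strands, the NRF1 motif with 1 free base was found in 10 of 34 members (29.4%) and in 5.19% of all 27025 genes of the table, and the full NRF1 motif, whose matches it includes, in 4 members (Atp5g2, Atp5k, Cox6a1 and Uqcrc1, 11.8%) and 1.07% of all genes. The GABPA motif was found in 12 members (35.3%) and 9.93% of all genes. The YY1 motif AAGATGGCG and the ESRRA motif TCAAGGTCA were each found in 2 members (5.88%), against 1.64% and 0.466% of all genes. A match is a description of letters and no test of binding.

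Subunits of all 4 complexes were lower in HNKO livers, with the most calls at day 6. The median log2 fold change of the 44 genes was -0.33, -0.39, -0.17 and -0.15 at days 3, 6, 12 and 21, beside 0.01, -0.01, 0.00 and -0.01 for all 20297 tested genes. At day 6, 23 of the 44 genes fell and 0 rose at an adjusted p under 0.05, where 12.8% of all tested genes were called in either direction and 4.37% were called lower. Without HNKO library 29 the count at day 6 was 3. At day 3, 2 genes fell, Cox5a and Atp5c1, where 4.66% of all tested genes were called and 1.71% were called lower. At day 12, 3 genes fell (Sdha, Uqcrb and Cox6c) and 1, Cox6a2, rose, where 7.82% of all tested genes were called, 3.27% lower and 4.56% higher. The rise of Cox6a2 is taken up below with the muscle markers. At day 21, Sdha and Atp5j fell, 2 genes where 3.12% of all tested genes were called and 0.916% were called lower. At an unadjusted p under 0.05 the counts were 29, 35, 16 and 6 of the 44 genes, beside 20.9%, 26.6%, 24.5% and 18% of all tested genes. The HNKO libraries lay below all WT libraries of the day for 6, 22, 3 and 6 of the 44 genes, beside 1.8%, 4.68%, 2.14% and 6.7% of all tested genes. The genes with a negative log2 fold change were 42, 42, 39 and 37 of the 44 at the respective days, whether called or not, and 36 were negative at all 4 days.

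Over the mean of the 4 days, 34 of the 44 genes fell and 1, Cox6a2, rose, where 36.4% of all tested genes were called, 17.3% lower and 19.2% higher. The median log2 fold change of the members over that mean was -0.27. Cox6a2 did not pass the filter on low counts without the libraries over 50 CPM of muscle markers (HNKO 11, 13 and 37, WT 21). Its call is therefore not read as a genotype effect. By complex, 4 of 4 genes of complex II, 8 of 9 of complex III, 9 of 14 of complex IV and 13 of 17 of complex V fell over the mean of the days. The genotype effect was not shown to differ between days for any of the 44 genes (interaction term, edgeR, 0 at an adjusted p under 0.05 and 1, Cox7a1, at an unadjusted p under 0.05, beside 0% and 4.76% of all tested genes). The difference in counts between days was not tested in another way.

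**Figure D1:**
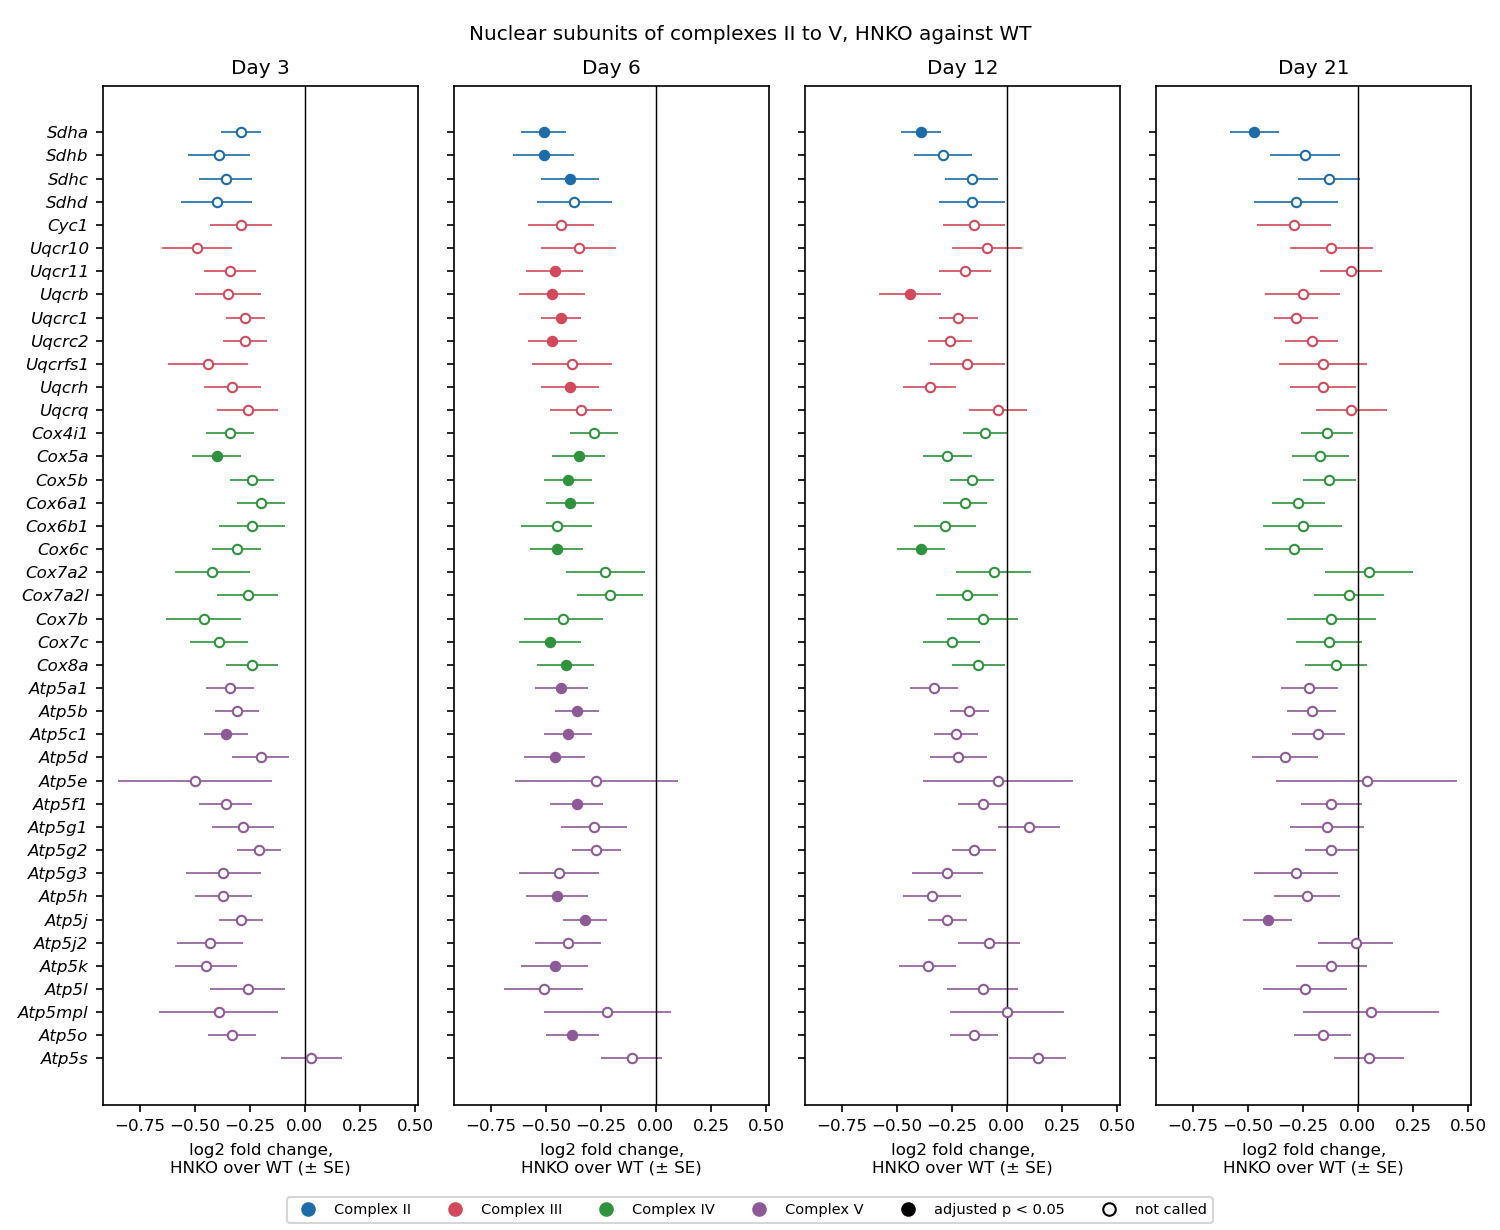
Log2 fold change of HNKO over WT (x axis, ± SE) at days 3, 6, 12 and 21 for 41 nuclear subunits of complexes II to V (y axis), without the muscle isoforms Cox6a2, Cox7a1 and Cox8b; filled points passed an adjusted p of 0.05. Nearly all points lie left of 0, and day 6 has the most filled points (23 genes).

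In complex II, 3 of 4 genes fell at day 6, 1 at days 12 and 21 and 0 at day 3 (edgeR, 4 at an unadjusted p under 0.05). Sdha, the flavoprotein subunit that binds and oxidizes succinate, was called at the most days. At day 3, Sdha was at 473, 494, 537, 531 and 488 CPM in WT and at 378, 397, 454, 463 and 372 CPM in HNKO. At day 6 the WT libraries held 556, 529, 567 and 562 CPM and the HNKO libraries 436, 401, 294, 376 and 429 CPM. At both days every HNKO library lay below every WT library. At day 12 the WT libraries held 492, 550, 540, 518 and 590 CPM, and the 6 HNKO libraries ranged from 385 to 442 CPM with a median of 407. At day 21 the values were 497, 471, 474, 437 and 521 CPM in WT and 303, 397 and 342 CPM in HNKO. All 19 HNKO libraries thus lay below every WT library of their day. This separation at each of the 4 days was found for no other of the 44 genes and for 15 of all 20297 tested genes (0.0739%).

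Sdha had log2 fold changes of -0.29, -0.51, -0.39 and -0.47 (SE 0.09, 0.10, 0.09 and 0.11) at days 3, 6, 12 and 21, and edgeR adjusted p = 0.0566, 0.000583, 0.00665 and 0.0138. It was the only member that fell at 3 days, and over the mean of the days it fell by 25.1% (log2 fold change -0.42, SE 0.05, edgeR adjusted p = 4.7e-08). The call at day 21 rested on HNKO library 37, without which the log2 fold change was -0.36 (edgeR adjusted p = 0.351), while 13 of all genes (0.0627%) were then called. Without HNKO library 29 the value at day 6 was -0.41 (edgeR adjusted p = 0.00379).

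Sdhb, the iron-sulfur subunit of complex II, was at 226, 205, 185 and 185 CPM in WT and 161, 160, 88.2, 136 and 160 CPM in HNKO at day 6. These values did not overlap, and Sdhb fell at that day (log2 fold change -0.51, SE 0.14, edgeR adjusted p = 0.0166). Without HNKO library 29, which held the 88.2 CPM, the value was -0.36 (edgeR adjusted p = 0.0998). At days 3, 12 and 21 the genotypes overlapped, with log2 fold changes of -0.39, -0.29 and -0.24 (edgeR adjusted p = 0.0838, 0.166 and 0.454).

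Sdhc and Sdhd anchor complex II in the inner membrane. Sdhc was at 130, 122, 145 and 141 CPM in WT and 101, 95.2, 83.2, 110 and 123 CPM in HNKO at day 6, with 4 of 5 HNKO libraries below all WT libraries, and it fell (log2 fold change -0.39, SE 0.13, edgeR adjusted p = 0.0411, and 0.181 without HNKO library 29). At days 3, 12 and 21 its log2 fold changes were -0.36, -0.16 and -0.13 (edgeR adjusted p = 0.0827, 0.424 and 0.687). Sdhd, whose upstream stretch holds both motifs, was not called at any day, with log2 fold changes of -0.40, -0.37, -0.16 and -0.28 (edgeR adjusted p = 0.14, 0.145, 0.554 and 0.466). At day 12 its HNKO libraries ranged from 113 to 196 CPM (median 141) and its WT libraries were at 144, 146, 127, 196 and 200 CPM, and the genotypes overlapped. Within each of the 2 sets of libraries given above the unrounded values did not, with 113, 114 and 116 CPM in HNKO against 127 to 146 CPM in WT in the first set. With the set as a term of the fit, Sdhd fell at day 6 (-0.40, edgeR adjusted p = 0.016). Over the mean of the days Sdhb, Sdhc and Sdhd fell by 21.9%, 16.5% and 18.9% (edgeR adjusted p = 0.00017, 0.0017 and 0.00455).

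**Figure D2:**
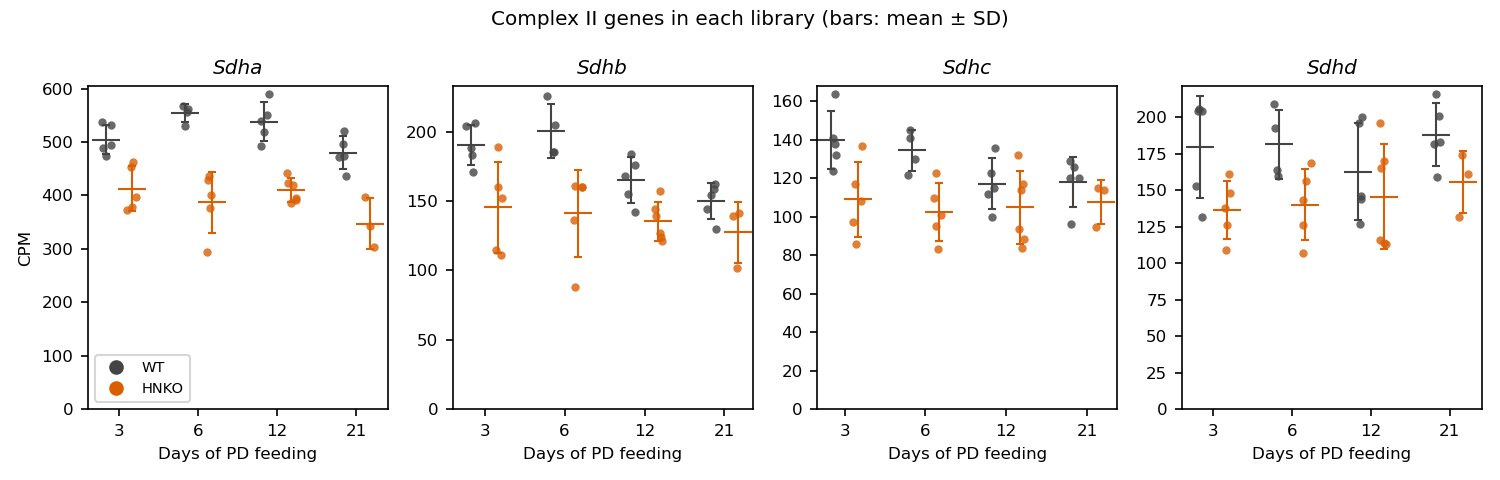
CPM (y axis, from 0) of the 4 complex II genes in each library by days of PD feeding (x axis); points are libraries, bars the mean ± SD of each group. The HNKO points of Sdha lie below all WT points at each day, between 294 and 463 CPM against 437 to 590 CPM over the 4 days, whereas Sdhc and Sdhd overlap at each day.

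In complex III, 5 of 9 genes fell at day 6, 1 at day 12 and 0 at days 3 and 21 (edgeR, 7 and 1 at an unadjusted p under 0.05). Uqcrc1, a core protein of the complex, had the smallest p over the mean of the days (log2 fold change -0.30, SE 0.05, edgeR adjusted p = 6.57e-06). At day 6 it was at 249, 272, 248 and 246 CPM in WT and 205, 203, 141, 185 and 204 CPM in HNKO, and it fell without overlap (log2 fold change -0.43, SE 0.09, edgeR adjusted p = 0.00238, and 0.0179 without HNKO library 29). It was separated at days 12 and 21 as well, though not called there (-0.22 and -0.28, edgeR adjusted p = 0.105 and 0.135). Uqcrc2, the other core protein, fell at day 6 (-0.47, edgeR adjusted p = 0.00295), as did the small subunits Uqcr11 (-0.46, edgeR adjusted p = 0.017) and Uqcrh, the hinge protein (-0.39, edgeR adjusted p = 0.0474).

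Uqcrb, the ubiquinone-binding protein of complex III, fell at days 6 and 12 (log2 fold change -0.47 and -0.44, SE 0.15 and 0.14, edgeR adjusted p = 0.0402 and 0.0469). At day 12 its WT libraries were at 114, 129, 187, 99.1 and 111 CPM and its HNKO libraries ranged from 88.1 to 112 CPM (median 92.6). The high WT value came from library 16, and 5 of 6 HNKO libraries lay below all WT libraries. Without WT library 16 the value at day 12 was -0.26 (edgeR adjusted p = 0.24), and the call was lost in 7 of the 11 fits that left out 1 library of the day. Without HNKO library 29 the value at day 6 was -0.34 (edgeR adjusted p = 0.21). Of the 51-base stretches of Uqcrb, 25% also occur in the transcript of Gm16089, so reads of these genes could not be fully separated. Cyc1, which carries the haem c of the complex, Uqcrfs1, the Rieske iron-sulfur protein, Uqcr10 and Uqcrq were not called at any day, with log2 fold changes between -0.34 and -0.43 at day 6.

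In complex IV, 6 of 14 genes fell at day 6, and the 6 include the liver forms Cox6a1 and Cox8a. Cox6c was at 196, 165, 168 and 158 CPM in WT and 136, 140, 88.7, 127 and 135 CPM in HNKO at day 6 (log2 fold change -0.45, SE 0.12, edgeR adjusted p = 0.00906, and 0.0634 without HNKO library 29). At day 12 it was at 144, 169, 165, 154 and 152 CPM in WT and from 107 to 128 CPM in HNKO (median 122), and it fell again (log2 fold change -0.39, SE 0.11, edgeR adjusted p = 0.0207). Neither day showed overlap. Cox6c shares its locus with Vps13b on the opposite strand, which had log2 fold changes between -0.05 and 0.03 at the 4 days.

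Cox5a, a subunit of the matrix side, fell at days 3 and 6. At day 3 it was at 53.7, 62, 65.9, 63.3 and 57.7 CPM in WT and 36.9, 48.9, 48.9, 51.1 and 43.5 CPM in HNKO, without overlap (log2 fold change -0.40, SE 0.11, edgeR adjusted p = 0.0341, up to 0.128 with 1 library left out). At day 6 only 2 of 5 HNKO libraries lay below all WT libraries (-0.35, edgeR adjusted p = 0.0449, and 0.239 without HNKO library 29). The other genes of complex IV that fell at day 6 were Cox5b (-0.40, edgeR adjusted p = 0.0134), Cox6a1 (-0.39, edgeR adjusted p = 0.0173), Cox7c (-0.48, edgeR adjusted p = 0.0186) and Cox8a (-0.41, edgeR adjusted p = 0.0287). Cox4i1, the largest nuclear subunit, was separated at day 6 but not called (-0.28, edgeR adjusted p = 0.102). Of the 51-base stretches of Cox7c, 22% are shared with Gm10012.

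In complex V, 9 of 17 genes fell at day 6, in the catalytic part F1 as well as in the stalks and the membrane part. The F1 subunits Atp5a1, Atp5b, Atp5c1 and Atp5d fell (log2 fold change -0.43, -0.36, -0.40 and -0.46, edgeR adjusted p = 0.0157, 0.0192, 0.01 and 0.0265), as did the stalk subunits Atp5f1, Atp5h, Atp5j and Atp5o (-0.36, -0.45, -0.32 and -0.38, edgeR adjusted p = 0.049, 0.0297, 0.0325 and 0.0329) and Atp5k of the membrane part (-0.46, edgeR adjusted p = 0.0317). None of these 9 calls held without HNKO library 29, with edgeR adjusted p from 0.0693 for Atp5c1 to 0.235 for Atp5f1. The c-ring genes Atp5g1, Atp5g2 and Atp5g3 were not called at any day, and 38.2% of the 51-base stretches of Atp5g2 are shared with Gm10175.

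Atp5c1, the central gamma subunit, also fell at day 3, at 205, 250, 232, 242 and 233 CPM in WT and 164, 188, 205, 187 and 163 CPM in HNKO (log2 fold change -0.36, SE 0.10, edgeR adjusted p = 0.032, up to 0.104 with 1 library left out). The unrounded values did not overlap, although the lowest WT and the highest HNKO library both come to 205 CPM. Atp5j, a coupling factor of the stalk, was the only gene of complex V that fell at day 21, at 99.5, 90.7, 87.8, 93.9 and 93.4 CPM in WT and 62.7, 74.2 and 72.7 CPM in HNKO (log2 fold change -0.41, SE 0.11, edgeR adjusted p = 0.035). Without HNKO library 37 the value was -0.32 (edgeR adjusted p = 0.462). Atp5j had the smallest p of complex V over the mean of the days (-0.32, SE 0.05, edgeR adjusted p = 5.86e-06). It overlaps Gabpa on the opposite strand, which itself fell at days 12 and 21 (-0.39 and -0.36, edgeR adjusted p = 0.00549 and 0.0434), and whether the counting used the strand is not given in the sources used here.

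Across the complexes the medians were close. The median log2 fold change at days 3, 6, 12 and 21 was -0.37, -0.45, -0.22 and -0.26 for complex II, -0.33, -0.43, -0.19 and -0.16 for complex III, -0.29, -0.39, -0.14 and -0.13 for complex IV, and -0.34, -0.38, -0.15 and -0.16 for complex V. Complex II had the most negative median at each day, but with 4 genes, and the difference between complexes was not tested. The values of complex IV include the muscle isoforms Cox6a2, Cox7a1 and Cox8b. In the single libraries, the median deviation from the WT mean of the day was lower for complex II than for complex IV in 13 of 19 HNKO libraries (higher in 4) and in 8 of 19 WT libraries (higher in 8). For complex II against complex V the counts were 15 of 19 in HNKO (higher in 4) and 11 of 19 in WT (higher in 8).

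HNKO livers of the same day also differed from each other. The median deviation of the 44 genes from the WT mean of the day was -0.80 (log2 CPM) in HNKO library 29 of day 6 and from -0.36 to -0.23 in the other 4 HNKO libraries of that day. At day 12, HNKO libraries 11, 12 and 13 were at -0.38, -0.36 and -0.38, and HNKO libraries 32, 35 and 36 at -0.03, -0.21 and 0.01. The former belong to the first and the latter to the second set of libraries given above, and the WT mean was taken over both sets. At this day the median log2 difference of the 44 genes between the second and the first set was 0.25 in HNKO and 0.11 in WT. At day 21, HNKO library 37 was at -0.40 and HNKO libraries 38 and 40 were at -0.10 and -0.05. Over all days the WT libraries ranged from -0.17 to 0.13.

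**Figure D3:**
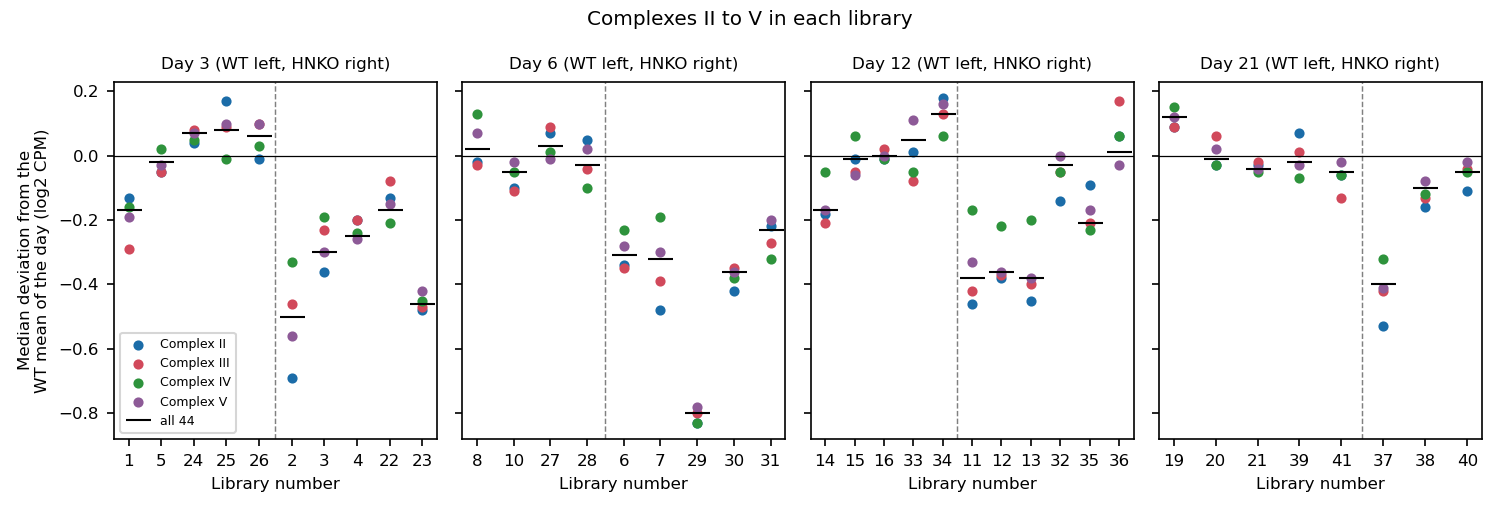
Median deviation of the genes of each complex from the WT mean of the day (y axis, log2 CPM) in each of the 38 libraries (x axis, library number), with WT left and HNKO right of the dashed line; black bars are the median of all 44 genes. HNKO library 29 lies lowest at -0.80, and HNKO libraries 22, 32, 36, 38 and 40 lie within the WT range over all days (-0.17 to 0.13). HNKO library 38, at -0.10, lies below the WT libraries of its own day 21 (-0.05 to 0.12).

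The marker sums differed between the libraries at the ends of this range and did not follow it throughout. The 4 HNKO libraries with the lowest medians (29, 2, 23 and 37, at -0.80, -0.50, -0.46 and -0.40) had cholangiocyte sums of 763, 414, 386 and 494 CPM, the highest of all libraries. Their hepatocyte sums were 69562, 104900, 82435 and 91774 CPM. The 4 HNKO libraries with the highest medians (36, 32, 40 and 38, at 0.01, -0.03, -0.05 and -0.10) had cholangiocyte sums of 179, 117, 235 and 145 CPM and hepatocyte sums of 133881, 124337, 104448 and 127171 CPM. Library 40 thus combined a high median with a hepatocyte sum close to that of library 2. HNKO libraries 11, 12 and 13, with medians of -0.38, -0.36 and -0.38, had cholangiocyte sums of 161, 232 and 184 CPM. These sums lay within the range of the 4 libraries with the highest medians. The 7 markers of stellate cells and myofibroblasts summed to 1063 CPM in library 29 and to 203 CPM in library 36. Their sum was 428 CPM in library 40 and 235 CPM in library 11. Of these markers 3, 4, 3 and 3 rose at days 3, 6, 12 and 21, where 598, 1709, 925 and 448 of all 20297 tested genes were called higher. At day 6 the sum of 6 macrophage markers was 717 to 1050 CPM in HNKO and 556 to 712 CPM in WT, and that of 6 leukocyte markers 61.6 to 131 CPM and 38.2 to 47.4 CPM. Both were highest in library 29, and 3 macrophage and 2 leukocyte markers rose at that day, where 1709 of all 20297 tested genes were called higher. The 10 hepatocyte markers had median log2 fold changes of -0.25, -0.35, -0.18 and -0.26 at days 3, 6, 12 and 21 (10, 10, 9 and 10 were negative). Of these, 0, 2, 0 and 0 fell, beside 1.71%, 4.37%, 3.27% and 0.916% of all tested genes called lower. The part of cell composition in the lower respiratory transcripts was not tested.

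Leaving out 1 library moved several of these counts. Without HNKO library 29, 3 of the 44 genes fell at day 6 (Sdha, Uqcrc1 and Uqcrc2), where 5.58% of all genes were then called, and 25 had an unadjusted p under 0.05. At day 3 the count was 0 without HNKO library 2 (edgeR, 25 at an unadjusted p under 0.05), where 1.63% of all genes were called, and 15 without HNKO library 22, where 8.24% were called. At day 12 it was 10 without HNKO library 36, of which 8 fell (8.16% of all genes called), and 1 without WT library 15 (4.21%). At day 21 it was 0 without HNKO library 37 (edgeR, 2 at an unadjusted p under 0.05), where 0.0627% of all genes were called. Of the 31 calls at single days, those of Sdha at days 6 and 12 and of Uqcrc1 and Uqcrc2 at day 6 were the only ones that passed whichever library of the day was left out. Over the mean of the 4 days the count stayed between 31 and 37 whichever library was left out.

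Within the sets of libraries, the median of the 44 genes was lower in HNKO in each comparison that could be made, with 39 to 42 of the 44 genes lower. Cox6a2 was higher in each, but at no more than 0.341 CPM in any library outside those over 50 CPM of muscle markers. Such values lie near the floor and are not read as a genotype effect. In libraries 1 to 16 the median log2 difference of the 44 genes was -0.21, -0.29 and -0.28 at days 3, 6 and 12. In libraries 19 to 40 it was -0.40, -0.49, -0.13 and -0.18 at days 3, 6, 12 and 21. Sdha had log2 differences between -0.24 and -0.64 in these 7 comparisons, each over 2 to 4 libraries a genotype. With the set as a term of the fit, a step added after seeing the data, 12 and 35 of the 44 genes fell at days 3 and 6, 6 fell and 1 rose at day 12 and 2 fell at day 21 (6.21%, 15.9%, 10.8% and 4.91% of all genes called), and Sdha at day 3 passed the test (-0.29, edgeR adjusted p = 0.049).

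Over 38 libraries, the deviations from the group mean had a median correlation of 0.43 over all 946 pairs of the 44 genes, 0.55 within complex II, 0.50 within complex III, 0.44 within complex V and 0.62 between complexes II and V. Within complex IV, which includes the muscle isoforms Cox6a2, Cox7a1 and Cox8b, the median was 0.14, and no value without these was computed. Single pairs ranged from -0.61 to 0.94 within complex IV and from -0.67 to 0.95 within complex V. Between the 44 genes and the complex I subunits the median was 0.42. All pairs share the same libraries, with their depth, set and cell composition. Cox6a2, Cox8b, Cox7a1 and Cox7a2l had a negative median correlation with the other genes (-0.36, -0.24, -0.06 and -0.06), while Atp5f1 and Atp5j had the highest (0.68 and 0.66).

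Of the 44 genes, 4 had a positive log2 fold change over the mean of the days, the muscle-type isoforms Cox6a2, Cox8b and Cox7a1 of complex IV (2.58, 1.29 and 0.19) and Atp5s of complex V (0.03), and Cox6a2 alone was called. Cox6a2 was at 10.2 CPM in HNKO library 11 and 1.65 CPM in HNKO library 13 at day 12, and at no more than 0.191 CPM in any WT library of that day, and the groups overlapped. It was the only gene of the 44 called higher (day 12, log2 fold change 4.90, SE 1.35, edgeR adjusted p = 0.0231). At day 21 it was at 4.89 CPM in HNKO library 37 and 1.86 CPM in WT library 21. These are the 4 libraries with over 50 CPM of skeletal muscle markers.

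Cox8b reached 4.85, 0.952, 3.44 and 1.11 CPM in these 4 libraries (HNKO 11, 13 and 37, WT 21), and Cox7a1 was at 4.27, 1.14, 4 and 1.78 CPM. Cox7a1 was also at 2.53 CPM in HNKO library 35 of day 12 with 0.224 CPM of muscle markers, and the 1.14 CPM of library 13 was the lowest of the 6 HNKO libraries of day 12. Cox7a1 was detected in every library, with at least 13 counts. The day effect within HNKO passed the test for Cox6a2, Cox7a1 and Cox8b (edgeR adjusted p = 0.0314, 0.015 and 0.0224) and for none of the other 41 genes. This is 6.82% of the 44 genes, a share close to the 7.9% of all tested genes that were called. With the 4 libraries left out, a step chosen after the data had been seen, Cox6a2 and Cox8b no longer passed the filter on low counts, and 0 members showed a day effect in HNKO (1 at an unadjusted p under 0.05).

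**Figure D4:**
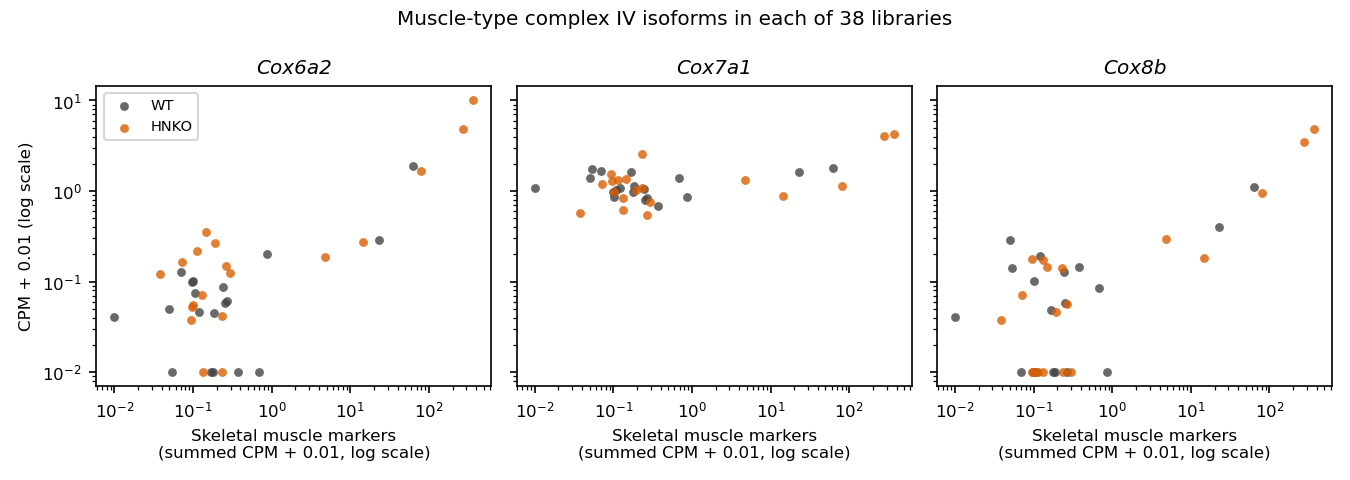
CPM plus 0.01 of Cox6a2, Cox7a1 and Cox8b (y axis, log scale) against the summed CPM plus 0.01 of 5 skeletal muscle markers (x axis, log scale) in 38 libraries. The highest values of Cox6a2 and Cox8b lie at the right, in the libraries with 62.9 to 369 CPM of muscle markers, in both genotypes.

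Without these 4 libraries the members called lower were 3, 20, 0 and 0 at days 3, 6, 12 and 21 (edgeR, 7 and 2 at an unadjusted p under 0.05 at days 12 and 21), and the background at those days was 4.59%, 11.9%, 2.66% and 0.0536%. Sdha then had log2 fold changes of -0.50, -0.34 and -0.37 at days 6, 12 and 21 (edgeR adjusted p = 0.00103, 0.0506 and 0.453). Cox6c and Uqcrb at day 12 were at -0.36 and -0.41 (edgeR adjusted p = 0.0842 and 0.162). The median log2 fold change of the members was -0.33, -0.38, -0.11 and -0.07.

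Among the isoforms, the liver forms carried nearly all counts per length. In WT the median level in CPM per kilobase of exon was 212 for Cox6a1 and 0.0717 for Cox6a2, 188 for Cox8a and 0.135 for Cox8b, and 103 for Cox7a2, 42.8 for Cox7a2l and 1.99 for Cox7a1. For the genes of the ATP synthase c ring it was 90.2 for Atp5g3, 21.1 for Atp5g1 and 9.11 for Atp5g2, and the ranges over the 19 WT libraries did not overlap between Atp5g3 (54.8 to 110) and Atp5g1 (10.9 to 27). The highest median levels of the 44 genes were those of Atp5a1 (327, range 267 to 404) and Atp5b (263, range 231 to 314), the alpha and beta subunits of F1, followed by Cox6b1 (242, range 171 to 334). The ranges of these 3 genes overlapped. The 4 complex II genes were at 149 (Sdhd), 126 (Sdha), 78.5 (Sdhb) and 38.6 (Sdhc), with overlapping ranges for Sdhd and Sdha. Cox4i2, Cox6b2, Cox7b2, Cox8c and Cox6c2 were under the count rule, with at most 15 counts in any library.

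In WT livers, Cox5b, Cox6a1 and Atp5g2 passed the test of a difference between days (edgeR adjusted p = 0.0427, 0.039 and 0.00399), 3 of 44 genes where 5.84% of all tested genes were called, a share close to the background. At an unadjusted p under 0.05 there were 16 of 44 members and 4312 of all 20297 tested genes.

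Genes that work with these complexes were counted as lists. The nuclear subunits of complex I, 38 of 41 of which were tested, included 4, 19, 8 and 0 genes that fell at days 3, 6, 12 and 21 where 1.71%, 4.37%, 3.27% and 0.916% of all tested genes were called lower, and had medians of -0.31, -0.39, -0.23 and -0.17. Without HNKO library 29 the day 6 count was 2 of 38 and the median -0.29. Ndufs3, a core subunit of complex I, fell at days 3, 6 and 12 (log2 fold change -0.39, -0.42 and -0.34, edgeR adjusted p = 0.0319, 0.0131 and 0.0366). The complex I count at day 21 (0 by edgeR) went with 6 at an unadjusted p under 0.05. These comparisons share the libraries of those above, and the difference between complex I and complexes II to V was not tested.

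Assembly factors of complexes II to V had medians of -0.11, -0.21, -0.11 and -0.10 over the 34 of 36 that were tested. Of these, 0, 2, 2 and 1 fell at days 3, 6, 12 and 21, against the same shares of all tested genes (1.71%, 4.37%, 3.27% and 0.916%), and without HNKO library 29 the day 6 count was 1. The count of 0 by edgeR at day 3 went with 6 at an unadjusted p under 0.05. Taco1, a translational activator of mt-Co1, fell at days 6 and 12 (-0.37 and -0.33, edgeR adjusted p = 0.0284 and 0.0396), Sco1, which brings copper to complex IV, fell at day 6 (-0.34, edgeR adjusted p = 0.00753), and Cox11, another copper factor, fell at days 12 and 21 (-0.62 and -0.86, edgeR adjusted p = 0.0379 and 0.0373). Over the mean of the days 12 of the 34 fell (35.3%), against 17.3% of all tested genes called lower. None of the 4 assembly factors each of complexes II and V and of the 6 of complex III was called at a single day.

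Cytosolic ribosomal proteins, which are also short and abundant transcripts, had medians of -0.11, -0.05, -0.02 and 0.01 over 77 tested genes, of which 0, 1, 0 and 1 fell. Of the mitochondrially encoded subunits, mt-Co1 had log2 fold changes of -0.18, -0.60, -0.37 and -0.52 (edgeR adjusted p = 0.691, 0.0882, 0.28 and 0.288) and mt-Cytb of -0.16, -0.61, -0.81 and -0.91 (edgeR adjusted p = 0.807, 0.22, 0.0709 and 0.155). Both fell over the mean of the days (-0.42 and -0.62, edgeR adjusted p = 0.0047 and 0.00209), and neither was called at a single day. The share of a library's counts on mitochondrially encoded genes was low in libraries 35 to 40, at 2.6% to 3.85%, of which 35 and 36 were HNKO of day 12, 37, 38 and 40 the 3 HNKO libraries of day 21 that were used, and 39 a WT library of day 21. It was 5.22% to 6.76% in the other 4 HNKO libraries of day 12 and 6.5% to 8.33% in the other WT libraries of days 12 and 21. The part of libraries 35 to 40 in both values was not tested. The other 4 listed (mt-Co2, mt-Co3, mt-Atp6 and mt-Atp8) had at most 0.197 CPM in any library and were not tested. The share of mitochondrially encoded counts given above thus hardly includes these 4 genes. Whether their low counts come from the RNA or from mapping and counting was not tested.

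Cytochrome c (Cycs), Ndufa4 and the supercomplex factors Higd1a and Higd2a were not called at a single day, with log2 fold changes from -0.27 to -0.43 at day 6. Over the mean of the days Cycs and Higd1a fell (-0.28 and -0.19, edgeR adjusted p = 0.0182 and 0.0329). Ndufa4, now counted to complex IV, is also among the complex I symbols above. The carriers that supply ATP synthase with its substrates moved apart. Slc25a5, the ADP/ATP carrier of liver, fell at day 6 (-0.44, edgeR adjusted p = 0.0387), and Slc25a4, the form known from heart and skeletal muscle, rose at day 12 (1.37, edgeR adjusted p = 0.0289) and over the mean of the days (1.08, edgeR adjusted p = 0.000124). All 5 skeletal muscle markers also rose at day 12, with 369 and 80 CPM in HNKO libraries 11 and 13. At day 6, where these markers summed to at most 0.285 CPM in HNKO, the log2 fold change of Slc25a4 was 1.05 (edgeR adjusted p = 0.111). Slc25a3, the phosphate carrier, fell over the mean of the days (-0.22, edgeR adjusted p = 0.0101).

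**Figure D5:**
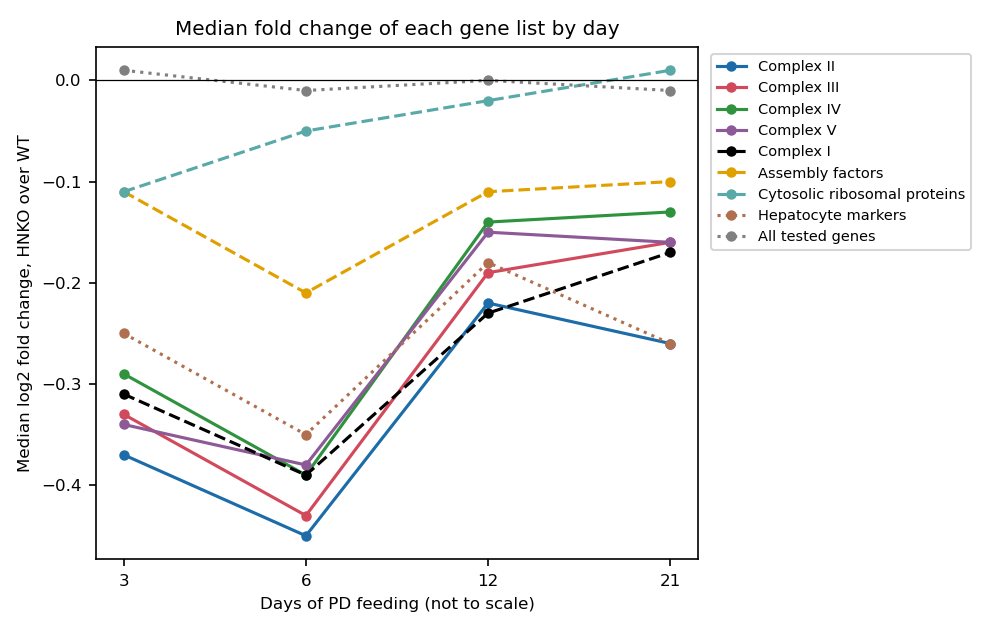
Median log2 fold change of HNKO over WT (y axis) by days of PD feeding (x axis, not to scale) for complexes II to V, complex I, assembly factors, cytosolic ribosomal proteins, 10 hepatocyte markers and all tested genes. The 5 complexes and the hepatocyte markers have their lowest value at day 6, from -0.35 to -0.45, and all tested genes stay between -0.01 and 0.01.

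Of the transcription factors and coactivators of respiratory genes, Tfam, which binds mitochondrial DNA, fell at days 3 and 12 (-0.37 and -0.41, edgeR adjusted p = 0.0476 and 0.0163), and Ppargc1a fell at day 6 (-0.61, edgeR adjusted p = 0.0296). Nrf1 had log2 fold changes of 0.09, -0.01, -0.10 and -0.14 and was not called at any day, and neither were Yy1 and Esrra. These 5 genes and Gabpa were chosen after results of these data had been seen, and their part in the lower transcripts was not tested.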

How the data were processed

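RNA was sequenced from 40 livers on paired-end reads of 51 bases. Per the labels and the study's methods, the authors aligned reads with STAR 2.7.2b to GRCm38 with GENCODE M22 annotation and deposited whole-number counts per gene from featureCounts 1.6.4, for read pairs with both ends aligned. The strand setting is not given in the sources used here. The 2 libraries described as failed (12287423 and 15935527 counts) were left out.

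Genes were filtered with filterByExpr (minimum count 10, total 15, proportion 0.7), which kept 20297 and removed 35190. Library sizes were scaled by TMM, and edgeR 4.0.16 (R 4.3.3, legacy quasi-likelihood computation) was fitted with 1 mean per genotype and day and a shared dispersion. Contrasts were HNKO minus WT at each day, its mean over days, the interaction, and the day effect in each genotype. P-values were adjusted by Benjamini-Hochberg over all tested genes, with a threshold of 0.05. Log2 CPM used a prior count of 2. The edgeR step was tested on simulated data.

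The members and lists were chosen with earlier results of these data known. Genes described singly were the Sdh genes, members called at 1 or more days, and in each complex the member with the smallest p over the mean of the days. Other genes are given by list, with values for those called. Tried alternatives were RLE scaling, DESeq2 1.42.0, robust and current edgeR computation, other filters, all 40 libraries, only the 2 groups of a day, a term for library numbers from 22 on, a term for libraries 19 to 40 (added after seeing the data), and omitting single libraries in turn. Animals were randomized to groups per the methods, and the labels give 1 library per number, so p-values measure the spread between these libraries. No set test was run.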

Additional observations from a re-analysis of the deposited data

Results flagged for a closer look

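In 175 groups of 4 to 6 libraries of the 25 genes described singly, 14 groups had a library that stood apart from the others of its group by Dixon's 95% limit. The 25 genes were mostly chosen by calls in these same data, and many calls at day 6 were lost without HNKO library 29. The genes also share the libraries, so the count cannot be set against a rate expected by chance. Of the 14 groups, 8 held the low value of HNKO library 29 at day 6. Its log2 CPM was 6.46 for Sdhb (7.09 to 7.33 in the other HNKO libraries of the day), 7.14 for Uqcrc1 (7.53 to 7.68), 6.76 for Uqcrc2 (7.23 to 7.41) and 6.47 for Cox6c (6.99 to 7.13). It was 9.15 for Atp5a1 (9.69 to 9.82), 9.50 for Atp5b (9.92 to 10.08), 6.97 for Atp5c1 (7.45 to 7.63) and 5.79 for Atp5o (6.23 to 6.39). These genes share the library, whose marker sums are given above.

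HNKO library 36 of day 12 stood high, at 6.81 for Uqcrb (6.46 to 6.57 in the others) and 7.56 for Uqcrc2 (7.17 to 7.32). Among WT libraries, Sdhc was low at 6.59 in library 41 of day 21 (6.91 to 7.01 in the others) and Atp5b was low at 9.99 in library 1 of day 3 (10.30 to 10.38). Uqcrc1 was high at 8.09 in library 10 of day 6 (7.94 to 7.96) and Atp5h was high at 7.58 in library 16 of day 12 (6.75 to 6.81).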

How the results depend on the processing

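Members called at days 3, 6, 12 and 21 were 2, 23, 4 and 2. Shares of all genes called in the same fit are given in brackets. Without a filter on low counts they were 0 at day 3 (1.6%, 28 members at an unadjusted p under 0.05), 10 at day 6 (4.9%) and 1 at day 21 (1.16%). With all 40 libraries they were 0 at day 3 (1.66%, 29 unadjusted), 13 at day 6 (6.61%) and 2 at day 12 (3.12%). With only the groups of the day they were 0 at day 3 (2.42%, 31 unadjusted), 4 at day 6 (7.53%), 2 at day 12 (4.79%) and 1 at day 21 (3.62%). DESeq2 called 13 at day 3 (7.04%), and requiring 10 counts in every library, which leaves out Cox6a2 and Cox8b, gave 2 at day 12 (8.35%). Without the libraries over 50 CPM of muscle markers, chosen after seeing the data, they were 0 at days 12 and 21 (2.66% and 0.0536%, 7 and 2 unadjusted), and Sdhd at day 12 turned to 0.00 (edgeR adjusted p = 0.997). That fit had no term for the set, and it left out HNKO libraries 11 and 13 of the first set. Within the first and the second set, with all libraries, Sdhd was at -0.28 and -0.17 at day 12. With the set of libraries 19 to 40 as a term, also chosen after seeing the data, the members called were 12, 35 and 7 at days 3, 6 and 12 (6.21%, 15.9% and 10.8%). The day effect in WT was called for 3 members, for 1 without the filter (2.03%), 0 with all 40 libraries (2.91%, 10 unadjusted), 6 with a term for library numbers from 22 on (11%), 5 with the set as a term (8.32%) and 1 without the muscle libraries (4.54%). In HNKO it was called for 3, for 1 with 10 counts in every library (11.2%) and 0 without the muscle libraries (6.35%, 1 unadjusted). Leaving out 1 library gave 0 to 15 at day 3, 3 to 25 at day 6, 1 (without WT library 15) to 10 at day 12, 0 to 2 at day 21, 31 to 37 for the mean of the days, 1 to 3 for the day effect in WT and 2 to 3 in HNKO. The cause was not tested. The count over the mean of the days stayed between 29 and 40 in all alternatives run for it, and the interaction stayed at 0. DESeq2 was not run for the interaction and the day effects. No paired analysis was possible because each library number occurs once and no number is shared between groups.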
